A study of Mus musculus with 32 samples.

Results

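Apela, Lpar4, Ccno, Spink1, Coch, Enox1 and Cubn are 7 genes whose RNA was far lower in mouse embryonic stem (ES) cells after knockdown of Pou5f1, the gene of the transcription factor Oct4, than after knockdown of Nanog or in vector cells. They were chosen by these RNAi levels themselves out of 18193 genes with a probe set of 1 gene name, so their levels on the RNAi arrays are given as a description and no p-value is attached to them. They are read by 12 of the 45037 probe sets tested on the RNAi arrays. On the two-colour arrays of chemically treated cells, which played no part in the choice, 4 of 16657 probes read 3 of them, Lpar4, Spink1 and Coch. The probe table used here names no two-colour probe for Apela, Ccno, Enox1 or Cubn.

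Oct4 and Nanog are transcription factors that, with Sox2, hold ES cells in the pluripotent state. Loss of Oct4 is known to turn mouse ES cells toward trophectoderm, the outer layer of the blastocyst, whereas loss of Nanog is known to favour primitive endoderm. The 7 genes do not belong to 1 pathway. Apela encodes a secreted peptide, Elabela or Toddler, that signals through the apelin receptor. Lpar4 is a G protein-coupled receptor for lysophosphatidic acid (LPA), and Cubn encodes cubilin, an endocytic receptor for the vitamin B12 carrier intrinsic factor that is known from visceral endoderm, gut and kidney. Spink1 is a secreted Kazal type inhibitor of trypsin, and Coch encodes cochlin, a secreted matrix protein known from the inner ear. Enox1 encodes a thiol oxidase of the cell surface, and Ccno encodes cyclin O, known for its part in making multiciliated cells.

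All cells were E14TG2a, an established mouse ES cell line. Total RNA on Affymetrix Mouse Genome 430 2.0 arrays came from cells transfected with a construct for Pou5f1 RNAi (4 arrays), a construct for Nanog RNAi (5 arrays) or the parental pSUPER-puro vector (5 arrays). All 3 groups were selected with 1 µg/ml puromycin for 3 days from 24 hours after transfection, so the RNA is from a transient, drug-selected pool. The 18 two-colour arrays set cells treated with 0.1 µM retinoic acid (RA), 1% dimethyl sulfoxide (DMSO) or 3 mM hexamethylene bisacetamide (HMBA), agents that drive differentiation, against untreated E14 cells. There are 2 arrays of opposite dye for each agent at days 2, 4 and 6. The labels do not say whether arrays of a group came from separate cultures, so errors and p-values measure the spread between arrays, and the number of arrays limits the precision.

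The targeted genes were as labelled. Pou5f1 measured 8.73 to 9.21 after Pou5f1 RNAi, 11.18 to 11.51 after Nanog RNAi and 11.31 to 11.51 in vector cells on the log2 scale. Nanog measured 9.57 to 9.82 after Pou5f1 RNAi, 9.14 to 9.47 after Nanog RNAi and 11.00 to 11.19 in vector cells, so both knockdowns lowered Nanog and its level was 0.41 higher after Pou5f1 RNAi than after Nanog RNAi. Of 10 ES cell marker genes, 10 fell after Pou5f1 RNAi and 7 after Nanog RNAi against vector (limma, adjusted p under 0.05 over all probe sets). Of 10 trophectoderm markers, 10 rose after Pou5f1 RNAi and 9 after Nanog RNAi. Their mean level was 8.82 to 9.01 after Pou5f1 RNAi, 6.40 to 6.88 after Nanog RNAi and 5.49 to 5.59 in vector cells. In bulk RNA, fewer cells of a type and less RNA per cell cannot be told apart, and the part of this shift in the levels below was not tested.

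The promoters are shown for 4 of the genes: Apela and Lpar4, whose levels followed each other most closely over the RNAi arrays with group differences included, and Enox1 and Cubn, the pair that was not higher after Nanog RNAi. Each runs from 250 bases before to 50 after the RefSeq start site on GRCm38.p6, 5′ to 3′ on the gene's strand, with every CpG in capitals. Apela lies at chr8:65037287-65037586 on the minus strand, Lpar4 at chrX:106920375-106920674 on the plus strand, Enox1 at chr14:77156513-77156812 on the plus strand and Cubn at chr2:13491827-13492126 on the minus strand.
Apela: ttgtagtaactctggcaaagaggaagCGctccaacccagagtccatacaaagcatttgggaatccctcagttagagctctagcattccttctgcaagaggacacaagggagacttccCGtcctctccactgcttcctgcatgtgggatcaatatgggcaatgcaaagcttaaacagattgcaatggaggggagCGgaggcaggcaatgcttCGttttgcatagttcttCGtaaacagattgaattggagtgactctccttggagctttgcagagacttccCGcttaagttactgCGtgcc
Lpar4: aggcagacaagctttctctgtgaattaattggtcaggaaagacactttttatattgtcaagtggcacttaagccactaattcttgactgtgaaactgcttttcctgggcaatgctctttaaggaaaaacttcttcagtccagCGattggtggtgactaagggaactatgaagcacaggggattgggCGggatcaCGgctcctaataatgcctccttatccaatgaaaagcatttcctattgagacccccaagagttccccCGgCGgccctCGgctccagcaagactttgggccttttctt
Enox1: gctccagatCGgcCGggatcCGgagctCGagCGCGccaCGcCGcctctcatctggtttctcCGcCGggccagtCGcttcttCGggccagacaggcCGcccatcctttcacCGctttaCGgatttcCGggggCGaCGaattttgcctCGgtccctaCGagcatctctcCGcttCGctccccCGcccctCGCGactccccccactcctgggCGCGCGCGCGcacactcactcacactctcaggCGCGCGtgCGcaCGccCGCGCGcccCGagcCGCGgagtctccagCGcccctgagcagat
Cubn: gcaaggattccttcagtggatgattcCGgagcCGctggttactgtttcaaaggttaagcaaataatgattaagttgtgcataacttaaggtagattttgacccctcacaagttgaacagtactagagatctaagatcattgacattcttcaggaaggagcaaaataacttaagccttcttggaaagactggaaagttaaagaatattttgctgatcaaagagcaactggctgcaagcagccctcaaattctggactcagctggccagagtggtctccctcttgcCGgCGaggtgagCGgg

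The capitals show few CpG in Apela, Lpar4 and Cubn and many in Enox1. Apela held 7 CpG and Lpar4 held 6, near the median of 7 over the 32851 promoters of the table. Enox1 held 42, a number that 3.03% of all promoters reach, whereas Cubn held 5, so the pair that was not higher after Nanog RNAi differed in this respect. Of the promoters not printed, Coch held 32 CpG and Ccno 33, with GC contents of 73.7% and 72.0%, against 49.0% in Apela, 46.7% in Lpar4, 70.3% in Enox1, 44.3% in Cubn and a median of 52.7% over all promoters. The motifs searched on both strands of the 6 matched promoters were ATGCAAAT (1.74% of all promoters), ATGCNAAT, which covers the first (3.15%), CTTTGTT (5.85%), CATTGTT (3.78%), TAATGG (7.73%) and TATAAA (13.6%). The matches found were TATAAA on the minus strand in Coch, 4 bases after the start site, and in Lpar4, at position -203. The letters of the other motifs were not found in these windows.

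After Pou5f1 RNAi all 7 genes were lower than in vector cells and lower than after Nanog RNAi, with no overlap between arrays, with median differences of -2.56 and -3.56 log2. Over all 18193 genes, 17.5% had every Pou5f1 RNAi array below every vector array and 18.1% every Pou5f1 RNAi array below every Nanog RNAi array, and nothing is read from the members' count, since these contrasts chose them. After Nanog RNAi the 7 genes did not stay at one level. Apela, Lpar4, Ccno, Spink1 and Coch were higher than in vector cells on every array, which held for 9.35% of all genes, while Enox1 and Cubn overlapped with vector cells. A gene picked for a low value in Pou5f1 RNAi minus Nanog RNAi is also favoured if it is high after Nanog RNAi, so this split is again a description. After Pou5f1 RNAi, Lpar4, Ccno and Enox1 lay below the array medians of 4.57 to 4.66 on all 4 arrays. The RNAi table has no detection calls, so these levels may be background, and for these 3 genes the differences and ranks that involve Pou5f1 RNAi may understate the loss. Cubn read 4.41 to 4.83 after Pou5f1 RNAi, around these medians, and 3.83 to 4.17, below them, by its second probe set 1426990_at. Its loss may be understated in the same way.

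**Figure D1:**
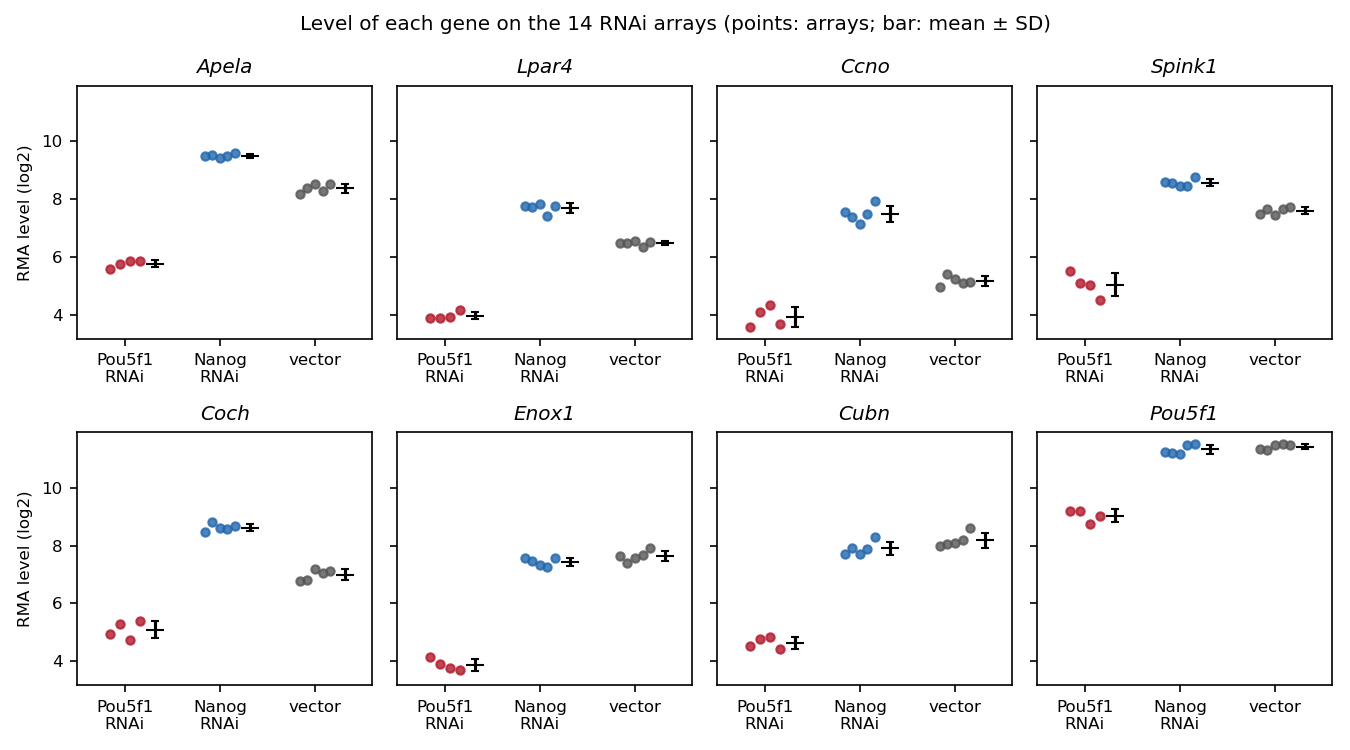
RMA level (log2) on each of the 14 RNAi arrays for the 7 genes and Pou5f1, with Pou5f1 RNAi left, Nanog RNAi in the middle and vector right; points are arrays and the bar is the mean ± SD. Every Pou5f1 RNAi point lies below the other groups in all 8 panels, and for Apela, Lpar4, Ccno, Spink1 and Coch every Nanog RNAi point lies above the vector points.

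Among the ligands, Apela (probe set 1436287_at) measured 5.59, 5.75, 5.84 and 5.87 after Pou5f1 RNAi, 9.48, 9.52, 9.41, 9.50 and 9.61 after Nanog RNAi, and 8.16, 8.38, 8.51, 8.28 and 8.50 in vector cells. The 3 groups lay apart with Nanog RNAi highest, and the gaps were wider than the spread within a group. Means were 5.76 ± 0.12 (SD, n = 4) after Pou5f1 RNAi, 9.50 ± 0.07 (SD, n = 5) after Nanog RNAi and 8.37 ± 0.15 (SD, n = 5) in vector cells. Apela was therefore 6.09-fold lower after Pou5f1 RNAi than in vector cells (-2.61 ± 0.09 log2, SE) and 13.3-fold lower than after Nanog RNAi (-3.74 ± 0.09). It was 2.19-fold higher after Nanog RNAi than in vector cells (+1.13 ± 0.08). A further Apela probe set, 1442571_at, read 3.50 to 3.80 after Pou5f1 RNAi, 3.93 to 4.24 after Nanog RNAi and 3.53 to 3.85 in vector cells, so it overlapped between Pou5f1 RNAi and vector.

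Of the receptors, Lpar4 (1439665_at) measured 3.90, 3.87, 3.93 and 4.15 after Pou5f1 RNAi, 7.77, 7.71, 7.82, 7.41 and 7.75 after Nanog RNAi, and 6.47, 6.49, 6.54, 6.36 and 6.52 in vector cells. Its groups were ordered as for Apela and did not overlap. Lpar4 measured 5.70-fold lower after Pou5f1 RNAi than in vector cells (-2.51 ± 0.09), 13.3-fold lower than after Nanog RNAi (-3.73 ± 0.09), and 2.33-fold higher after Nanog RNAi than in vector cells (+1.22 ± 0.08). Both other Lpar4 probe sets kept these directions: 1434186_at gave -1.67 for Pou5f1 RNAi against vector and +1.05 for Nanog RNAi against vector, and 1452424_at gave -0.95 and +0.81, the last with overlapping arrays.

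Cubn (1452270_s_at) measured 4.51, 4.77, 4.83 and 4.41 after Pou5f1 RNAi, 7.72, 7.91, 7.72, 7.88 and 8.29 after Nanog RNAi, and 7.98, 8.05, 8.08, 8.20 and 8.62 in vector cells. The Pou5f1 RNAi arrays stood apart, and the Nanog RNAi and vector arrays overlapped. Cubn measured 11.8-fold lower after Pou5f1 RNAi than in vector cells (-3.56 ± 0.13) and 9.66-fold lower than after Nanog RNAi (-3.27 ± 0.13), from levels that may be background. Nanog RNAi minus vector was -0.28 ± 0.13. The second Cubn probe set, 1426990_at, gave -3.17 for Pou5f1 RNAi against vector, -2.73 against Nanog RNAi and -0.43 for Nanog RNAi against vector.

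Of the other secreted proteins, the trypsin inhibitor Spink1 (1415938_at) measured 5.50, 5.09, 5.03 and 4.52 after Pou5f1 RNAi, 8.58, 8.57, 8.45, 8.46 and 8.75 after Nanog RNAi, and 7.47, 7.67, 7.46, 7.65 and 7.71 in vector cells. The matrix gene Coch (1423285_at) measured 4.95, 5.30, 4.75 and 5.38 after Pou5f1 RNAi, 8.46, 8.80, 8.60, 8.56 and 8.68 after Nanog RNAi, and 6.76, 6.82, 7.18, 7.05 and 7.13 in vector cells. In both genes the groups lay apart in the order Pou5f1 RNAi, vector, Nanog RNAi. Spink1 was 5.90-fold lower after Pou5f1 RNAi than in vector cells (-2.56 ± 0.13) and 1.96-fold higher after Nanog RNAi (+0.97 ± 0.13). Coch was 3.72-fold lower after Pou5f1 RNAi (-1.90 ± 0.12) and 3.10-fold higher after Nanog RNAi (+1.63 ± 0.11) than in vector cells.

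Of the intracellular and cell surface enzymes and cyclins, Ccno (1455114_at) measured 3.59, 4.09, 4.33 and 3.68 after Pou5f1 RNAi, 7.56, 7.38, 7.15, 7.47 and 7.92 after Nanog RNAi, and 4.94, 5.42, 5.24, 5.09 and 5.13 in vector cells. The 3 groups lay apart, with Nanog RNAi highest. Ccno measured 2.36-fold lower after Pou5f1 RNAi than in vector cells (-1.24 ± 0.15) and 5.03-fold higher after Nanog RNAi (+2.33 ± 0.14). Against Nanog RNAi it measured 11.9-fold lower after Pou5f1 RNAi (-3.57 ± 0.15). Since vector cells themselves read close to the array median, how far Ccno fell below them cannot be read from these arrays. Enox1 (1436799_at) measured 4.14, 3.90, 3.77 and 3.68 after Pou5f1 RNAi, 7.57, 7.45, 7.32, 7.25 and 7.55 after Nanog RNAi, and 7.65, 7.40, 7.58, 7.66 and 7.91 in vector cells. As for Cubn, the Nanog RNAi and vector arrays overlapped (-0.21 ± 0.10) and the Pou5f1 RNAi arrays measured 13.6-fold below vector (-3.77 ± 0.11), from levels that may be background. The second Enox1 probe set, 1447857_at, lay between 2.89 and 3.35 on all 14 arrays and differed by -0.19 between Pou5f1 RNAi and vector.

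**Figure D2:**
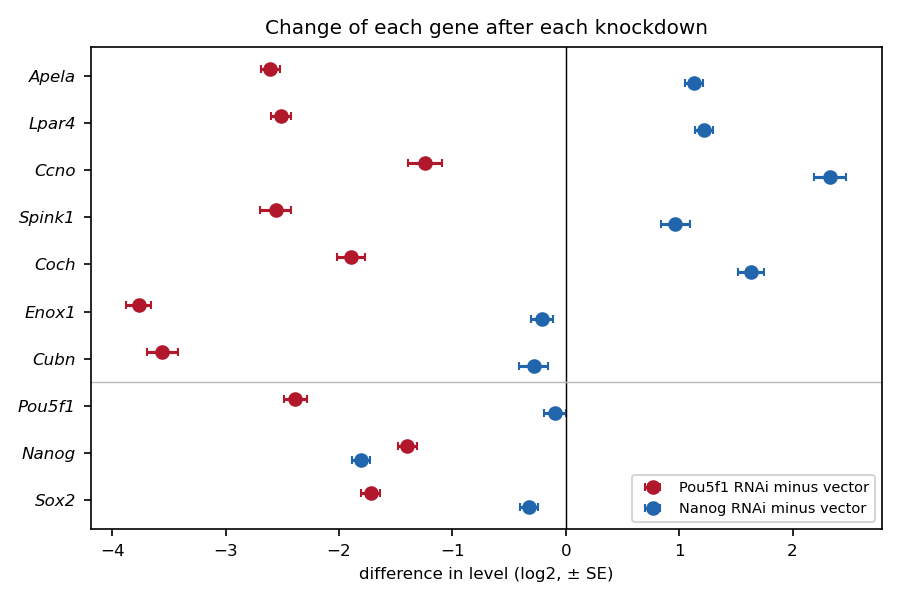
Difference in level from vector cells (log2, ± SE) after Pou5f1 RNAi in red and after Nanog RNAi in blue for the 7 genes and, under the line, for Pou5f1, Nanog and Sox2. The red points of the 7 genes run from -3.77 to -1.24, while the blue points of Apela, Lpar4, Ccno, Spink1 and Coch lie right of 0 and those of Enox1 and Cubn just left of it.

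A level at least 1 log2 lower after Pou5f1 RNAi together with one at least 1 log2 higher after Nanog RNAi, both against vector, was met by 13 of 18193 genes (0.0715%), and 4 of the 7 genes, Apela, Lpar4, Ccno and Coch, were among them. The choice of the members favours genes of this pattern, so nothing is read from that count. In Pou5f1 RNAi minus Nanog RNAi the 7 genes took ranks 4 to 9 and 13 from the lowest. The 6 genes ranked among them that are not members were Aass (-4.64), Gbx2 (-4.40), Otx2 (-3.91), Car3 (-3.45), Trh (-3.42) and Ttn (-3.35). Just inside the end of the ranking lay Cubn at -3.27 and just outside it Neurod1 at -3.24. Against vector the ranks were more scattered: Enox1 was 3, Cubn 5, Apela 35, Spink1 37, Lpar4 39, Coch 115 and Ccno 374 from the lowest. The spread within groups had a median SD of 0.22 over the 7 genes (0.12 to 0.28), against 0.14 over all probe sets.

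Alike and unlike profiles could be described over the 14 arrays, with group differences included in every correlation. Apela and Lpar4 had a Pearson r of 0.996 and Enox1 and Cubn one of 0.992, whereas the lowest of the 21 pairs, Ccno with Cubn, had 0.684. Within groups, deviations from the group mean correlated between -0.35 and 0.68, with 0.31 for Apela and Lpar4. The Pou5f1 RNAi array with the lowest Pou5f1, replicate 3, held the lowest Coch but the highest Ccno and Cubn. Levels of Ccno and Cubn on the Pou5f1 RNAi arrays may be background, so nothing is read from this order. The genes most like each member among 16329 were Lpar4, Epha2 and Nodal for Apela (r of 0.996 each) and Apela, Nodal (0.995) and Slc27a2 (0.994) for Lpar4. They were Dcaf12l1 (0.991), Selenop (0.990) and Akr1b8 (0.989) for Ccno, Psrc1 (0.991), Dppa3 (0.991) and Nodal (0.989) for Spink1, and Dcbld1 (0.990), Irak3 (0.985) and Zfp296 (0.985) for Coch. For Enox1 they were Srgn (0.996), Morc1 (0.996) and Lefty2 (0.995), and for Cubn Chek2 (0.996), Cth (0.995) and Helb (0.994).

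The pathway genes around the members did not all move with them. Of 74 measured partner genes, 21 rose and 14 fell after Pou5f1 RNAi against vector (limma, adjusted p under 0.05 over all probe sets), or 47.3% called against 40.1% of all genes. Against Nanog RNAi 17 rose and 17 fell after Pou5f1 RNAi (37.4% of all genes called), and after Nanog RNAi 13 rose and 13 fell against vector, or 35.1% against 20.8% of all genes. Around Cubn, Amn, whose product amnionless forms the receptor complex with cubilin, fell by 1.77 on the log2 scale after Pou5f1 RNAi (SE 0.10, adjusted p = 1.1e-11), and Dab2, the endocytic adaptor, fell by 1.53 (SE 0.08, adjusted p = 1.6e-12). After Nanog RNAi Amn fell by 0.52 (adjusted p = 0.00046), and Dab2 gave -0.07 (adjusted p = 0.65). Lrp2, the megalin that works with cubilin, gave +0.19 after Pou5f1 RNAi (adjusted p = 0.15) and rose by 0.57 after Nanog RNAi (adjusted p = 0.00014). Lrpap1, the chaperone of megalin, fell by 0.71 after Pou5f1 RNAi and rose by 1.22 after Nanog RNAi. Over the 15 measured genes of the cubilin and cobalamin list, 4 rose and 4 fell after Pou5f1 RNAi, with a list median of -0.19 against -0.04 for all genes. After Nanog RNAi 3 rose and 3 fell, among them Mmut, the cobalamin-dependent mutase, which fell by 0.83 (adjusted p = 1.6e-07). Amn, Dab2 and Lrp2 also stand in the list of primitive and visceral endoderm markers, of which 6 of 12 fell after Pou5f1 RNAi. After Nanog RNAi 4 of these 12 rose and 1 fell. The mean level of that list was 5.06 to 5.14 after Pou5f1 RNAi, 5.81 to 5.99 after Nanog RNAi and 5.67 to 5.77 in vector cells, and its part in the Cubn values was not tested.

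Around Lpar4, the LPA receptors moved in both directions. Lpar1 fell by 0.99 after Pou5f1 RNAi (SE 0.10, adjusted p = 8.1e-08) and rose by 0.62 after Nanog RNAi (adjusted p = 7.1e-05), the directions in which Lpar4 lay. Lpar6 rose in both knockdowns, by 0.97 after Pou5f1 RNAi and by 1.96 after Nanog RNAi (adjusted p = 2.8e-08 and 1.9e-12). The lipid phosphatase Plpp2 rose by 1.13 after Pou5f1 RNAi and gave -0.086 after Nanog RNAi (adjusted p = 0.69), and Plpp3 rose by 0.71 after Pou5f1 RNAi and by 1.19 after Nanog RNAi. Of the 7 measured genes of this list, 4 rose and 1 fell after Pou5f1 RNAi and 3 rose and 1 fell after Nanog RNAi.

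**Figure D3:**
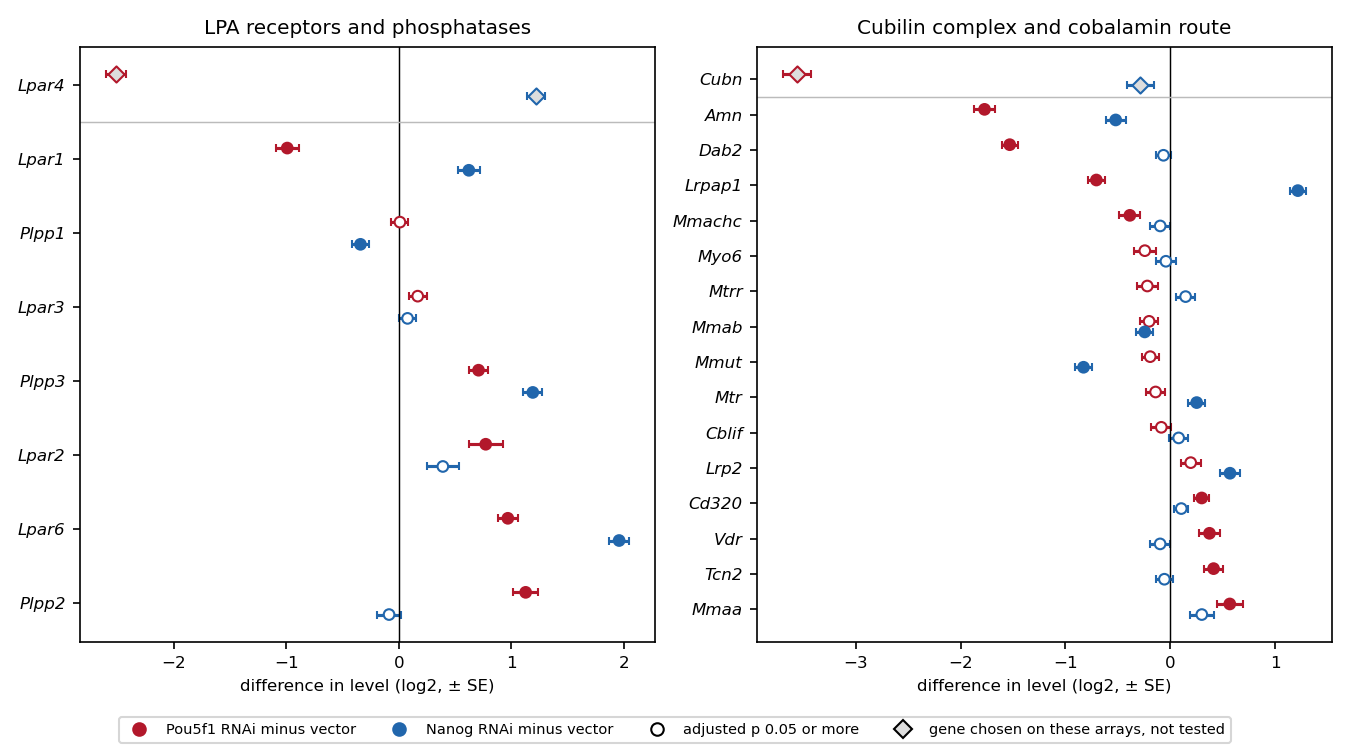
Difference in level from vector cells (log2, ± SE) for Lpar4 with the LPA receptor and phosphatase genes, left, and for Cubn with the cubilin complex and cobalamin genes, right; red is Pou5f1 RNAi, blue is Nanog RNAi, filled circles have an adjusted p under 0.05 and grey diamonds are the 2 members, which were not tested. Lpar1 lies on the same sides of 0 as Lpar4, Lpar6 lies right of 0 in both knockdowns, and Amn and Dab2 lie left of 0 after Pou5f1 RNAi.

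The receptor of Apela, Aplnr, gave +0.03 after Pou5f1 RNAi (adjusted p = 0.88) and +0.11 after Nanog RNAi (adjusted p = 0.55). Sox17, an endoderm transcription factor placed downstream of the peptide in zebrafish, fell by 1.27 after Pou5f1 RNAi (adjusted p = 7.9e-07) and rose by 0.60 after Nanog RNAi (adjusted p = 0.0052). Gna13, a G protein subunit, rose by 0.74 after Pou5f1 RNAi, and Arrb1, which encodes a beta-arrestin, rose by 0.66 after Pou5f1 RNAi (adjusted p = 0.0012) and fell by 0.64 after Nanog RNAi (adjusted p = 0.0024). Of the 7 genes of apelin receptor signalling, 3 rose and 3 fell after Pou5f1 RNAi and 2 rose and 1 fell after Nanog RNAi.

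Of 12 measured multiciliation and oocyte partners of cyclin O, 1 rose and 2 fell after Pou5f1 RNAi. Myb, a transcription factor of the multiciliated programme, fell by 1.49 after Pou5f1 RNAi (adjusted p = 1.6e-09) and by 0.81 after Nanog RNAi (adjusted p = 1.7e-05), so it did not lie on the side of Ccno after Nanog RNAi. The 4 measured multiciliated cell markers had adjusted p of 0.25 or more in both knockdowns against vector, with mean levels of 3.59 to 3.69 after Pou5f1 RNAi, 3.62 to 3.76 after Nanog RNAi and 3.67 to 3.79 in vector cells. Of 7 other cyclin genes listed (Ccni, Ccng1, Ccng2, Ccnj, Ccnjl, Ccny and Ccnf), 4 rose after Pou5f1 RNAi. Ccng1 rose by 0.62 after Pou5f1 RNAi and by 0.31 after Nanog RNAi, and Ccng2 gave -0.33 after Pou5f1 RNAi (adjusted p = 0.16) and fell by 1.16 after Nanog RNAi. For Spink1, 2 of 12 measured inhibitors and proteases rose and 1 fell after Pou5f1 RNAi: the membrane protease inhibitor Spint1 rose by 1.13 and Spink10 fell by 1.02. For Coch, Dcbld1, which shares its LCCL domain, fell by 0.72 after Pou5f1 RNAi (adjusted p = 5.3e-07) and rose by 0.61 after Nanog RNAi (adjusted p = 1.1e-05), whereas Dcbld2 rose by 1.14 after Pou5f1 RNAi. For Enox1, the reductase gene Cyb5r3 rose by 0.88 after Pou5f1 RNAi and Nqo1 by 0.56 after Nanog RNAi, both out of 4 genes.

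The genes that flank the members on the chromosome were called at shares between 21.4% and 46.4%. Of 28 neighbours, up to 2 on each side, 2 rose and 8 fell after Pou5f1 RNAi against vector (35.7%, against 40.1% of all genes). Against Nanog RNAi 4 rose and 9 fell after Pou5f1 RNAi (46.4%, against 37.4%), and 3 rose and 3 fell after Nanog RNAi against vector (21.4%, against 20.8%). G2e3, a ubiquitin ligase gene near Coch, fell by 1.91 after Pou5f1 RNAi (SE 0.08, adjusted p = 1.3e-13) and by 0.85 after Nanog RNAi (adjusted p = 8.5e-08), whereas Coch lay above vector after Nanog RNAi. Dpysl3, near Spink1, fell by 1.06 after Pou5f1 RNAi (adjusted p = 1.5e-07), and Gpx8, near Ccno, rose by 1.41 (adjusted p = 7.1e-10). Vim, the vimentin gene near Cubn, differed by -1.03 between Pou5f1 RNAi and Nanog RNAi (adjusted p = 6.0e-10) and, against vector, fell by 0.43 after Pou5f1 RNAi and rose by 0.60 after Nanog RNAi. The 8 neighbours of Apela and Lpar4 differed by -0.16 to 0.13 in the 3 RNAi comparisons, with adjusted p of 0.22 or more. Of these, Smim31, Marchf1, Rtl3, Cysltr1, P2ry10 and P2ry10b had group means of 2.73 to 4.06, below the array medians of 4.57 to 4.66. Their levels may be background, where a fall could not be seen.

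On the two-colour arrays the question was how the members behave when Pou5f1 falls during chemically driven differentiation. Values are log ratios of treated over untreated cells, taken as log2 although no label states the base. Since the untreated RNA is the common channel, the test of a ratio against 0 leaves out the spread of the untreated cells. Pou5f1 fell with each agent, by 1.93 with RA, 0.62 with DMSO and 1.47 with HMBA over the 3 days (limma, adjusted p of 1.5e-07, 0.0022 and 1.6e-06). Nanog fell by 1.55 with DMSO and by 1.40 with HMBA, and gave -0.47 with RA (adjusted p = 0.052, and 2.3e-05 with dye orientation as a replicate block). Of the 3 members measured there, none followed Pou5f1 in all 3 treatments. Lpar4 was higher with each agent, Spink1 was higher with RA and lower with DMSO and HMBA, and Coch was higher with HMBA by 1 of its 2 probes. The share of all 12034 genes called was 27.5% for RA, 19.3% for DMSO and 28.2% for HMBA.

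Lpar4 ratios on the RA arrays were 1.56 and 1.27 at day 2, 0.52 and 0.98 at day 4, and -0.13 and 0.23 at day 6. On the DMSO arrays they were 1.31 and 1.49 at day 2, 0.53 on the 1 array with a value at day 4, and 1.23 and 0.94 at day 6. The HMBA arrays gave 0.27 on the 1 array with a value at day 2, 0.90 and 1.01 at day 4, and 0.10 and -0.18 at day 6. Every array lay above 0 except 1 of the RA pair and 1 of the HMBA pair at day 6. Over the days Lpar4 rose by 0.74 ± 0.10 (SE) with RA (adjusted p = 0.00037, 6 arrays), by 1.00 ± 0.12 with DMSO (adjusted p = 0.00019, 5 arrays) and by 0.40 ± 0.12 with HMBA (adjusted p = 0.032, 5 arrays). The HMBA call was lost without either HMBA day 4 array or without the HMBA day 6 array in Cy3 (0.35 to 0.44 over all omissions), and with 1 group per treatment (0.42, adjusted p = 0.18). By day, Lpar4 was called higher at RA day 2 (4.94% of all genes called higher) and day 4 (6.73%), at DMSO day 2 (0.989%) and day 6 (6.52%), and at HMBA day 4 (8.83%). With RA its ratio was 1.37 ± 0.25 log2 lower at day 6 than at day 2 (adjusted p = 0.033; 1.34% of all genes called), while Pou5f1 stood at -1.31 at day 2, -2.04 at day 4 and -2.44 at day 6. At DMSO day 2, where Lpar4 gave 1.40 (adjusted p = 0.0024), Pou5f1 gave +0.24 (adjusted p = 1.0). HMBA minus DMSO was -0.61 ± 0.17 (adjusted p = 0.15, 1.75% of all genes called), and it passed the test with dye orientation as a replicate block (adjusted p = 0.013). With all arrays and that block, the HMBA mean was also called (adjusted p = 0.0039). The share of all genes called with the block is not given, so nothing more about Lpar4 is read from it.

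Spink1 ratios on the RA arrays were 0.17 and -0.53 at day 2, 0.87 and -0.17 at day 4, and 2.98 and 2.10 at day 6. The DMSO arrays gave -0.51 and -1.43 at day 2, -0.52 and -1.45 at day 4, and -0.10 and -0.78 at day 6, and the HMBA arrays gave -0.49 and -1.47, then -0.52 and -1.97, then 0.41 and -0.24 on the same days. Both RA day 6 arrays stood above all 16 others, and the array with treated cells in Cy3, given first, was the higher of the pair in 9 of 9 pairs (median Cy5 minus Cy3 difference -0.92). Spink1 rose by 0.90 ± 0.24 with RA (adjusted p = 0.015), fell by 0.80 ± 0.24 with DMSO (adjusted p = 0.040) and fell by 0.71 ± 0.24 with HMBA (adjusted p = 0.049). RA minus DMSO was 1.70 ± 0.34 (adjusted p = 0.0097; 6.48% of all genes called) and RA minus HMBA 1.62 ± 0.34 (adjusted p = 0.019; 3.14%), whereas HMBA minus DMSO was 0.08 ± 0.34 (adjusted p = 1.0). By day, RA day 6 was called at 2.54 ± 0.42 (adjusted p = 0.0014), where 10.8% of all genes were called higher. RA day 6 minus day 2 was 2.72 ± 0.59 (adjusted p = 0.052, and 6.3e-08 with the dye as a replicate block). With that block Spink1 was also called lower at DMSO days 2, 4 and 6 and at HMBA days 2 and 4, and HMBA day 6 minus day 2, at 1.07, was called (adjusted p = 0.75 without the block). The share of all genes called with the block is not given, so nothing particular to Spink1 is read from these calls. The RA, DMSO and HMBA calls and both differences from RA were lost with 1 group per treatment, which counts the change over days as error. That fit and the omissions that follow had no dye term. With all arrays and the dye as a replicate block, adjusted p was 2.3e-08 for RA, 1.8e-07 for DMSO and 4.6e-07 for HMBA. It was 2.4e-09 for RA minus DMSO and 9.1e-09 for RA minus HMBA. The RA call was also lost without any 1 of the 3 RA arrays in Cy3 (0.73 to 1.08 over all omissions). The DMSO call was lost without the DMSO day 2 or day 4 array in Cy5 or either DMSO day 6 array (-0.95 to -0.64), and RA minus HMBA without any 1 of the 3 RA arrays in Cy3 or the 3 HMBA arrays in Cy5 (1.38 to 1.86). The HMBA call, closest to the threshold, was lost in 12 of 18 omissions (-0.95 to -0.47): each HMBA array except those in Cy3 at days 2 and 4, and all RA and DMSO arrays of days 2 and 6.

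Markers of several cell types rose beside these ratios, and ES cell markers fell. Of 10 ES cell markers, 9 fell with RA, 9 with DMSO and 10 with HMBA, with list medians of -1.74, -2.20 and -1.97. Of 4 measured neural markers, 1 rose and 1 fell with each agent. Of 2 measured mesoderm markers, 1 fell with RA and 1 with HMBA, and neither was called with DMSO. With RA, 4 of 9 measured primitive and visceral endoderm markers rose and 1 fell, 4 of 8 trophectoderm markers rose, and 3 of 5 fibroblast markers rose. Among the endoderm markers, Dab2 rose by 1.82 with RA, Gata4 by 1.05, Amn by 0.61 and Ttr by 0.47, and Foxa2 fell by 0.58. Larger rises were measured in the trophectoderm and fibroblast lists. The keratin gene Krt8 rose by 3.01 with RA, Gata3 by 2.90 and Krt7 by 2.49, and the collagen genes Col1a2, Col1a1 and Col3a1 rose by 3.22, 3.01 and 1.39. With DMSO no endoderm marker had an adjusted p below 0.091, while 1 trophectoderm marker rose and 1 fell and 1 fibroblast marker rose and 1 fell. With HMBA 1 endoderm marker rose, 3 trophectoderm markers rose and 1 fell, and 2 fibroblast markers rose. With the dye as a replicate block, 6 endoderm markers rose and 1 fell with RA, while 4 rose with DMSO and 3 with HMBA. Of the trophectoderm markers, 4 rose and 1 fell with RA, 3 rose and 2 fell with DMSO, and 4 rose and 1 fell with HMBA. Of the fibroblast markers, 3 rose with RA, and 2 rose and 1 fell with each of DMSO and HMBA. All 10 ES cell markers fell with each agent. Of the neural markers, 2 rose and 1 fell with RA and with HMBA, and 1 rose and 2 fell with DMSO. Of the mesoderm markers, 1 fell with RA and 1 with HMBA, and 2 rose with DMSO. No share of all genes called with the block is given beside these counts. Amn and Dab2, which fell after Pou5f1 RNAi, rose with RA while Pou5f1 fell, as did Spink1. The part of any of these lists in the Lpar4, Spink1 and Coch ratios was not tested. The genes most like Spink1 over the 18 arrays were Rasal1 (r of 0.937), Eva1a (0.926) and Pros1 (0.917), with dye differences and treatment differences both included.

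Coch, by probe 1116201, gave 0.45 and 1.56 at RA day 2, 0.32 and 0.65 at day 4, and -0.88 and 0.21 at day 6. The DMSO arrays gave 0.26 and 1.00, then -0.51 and 0.37, then -0.20 and 0.46, and the HMBA arrays gave 1.38 and 1.34, then 0.51 and 0.56, then -0.36 and 0.16 on the same days. The Cy5 array was the higher one in 8 of 9 pairs (median difference 0.65), and day 2 held the highest mean in each treatment. Coch rose by 0.60 ± 0.19 with HMBA (adjusted p = 0.034), with day 2 at 1.36 ± 0.33 (adjusted p = 0.030; 3.47% of all genes called higher). RA gave 0.38 ± 0.19 (adjusted p = 0.17, and 0.0043 with the dye as a replicate block; 0.20 without the RA day 2 or the RA day 6 array in Cy5, and up to 0.57 over all omissions) and DMSO 0.23 ± 0.19 (adjusted p = 0.49). Day 6 minus day 2 was -1.33 with RA (adjusted p = 0.28, and 0.0019 with the block) and -1.46 with HMBA (adjusted p = 0.21, and 0.00076 with the block; 1.75% of all genes called without it). With the block Coch was also called higher at RA days 2 and 4, DMSO day 2 and HMBA day 4. The share of all genes called with the block is not given, so nothing particular to Coch is read from these calls. At HMBA day 2, where Coch was called without the block, Pou5f1 gave -0.14 (adjusted p = 0.89). At HMBA day 6 Pou5f1 gave -2.22 (adjusted p = 1.5e-05) and Coch -0.10 (adjusted p = 0.96). The second Coch probe, 1117146, gave -0.06 with RA, 0.31 with DMSO and 0.05 with HMBA (adjusted p of 0.86, 0.23 and 0.88, with 0.020 for DMSO under the dye block), so the rise with HMBA was seen by 1 probe of 2. It was also lost without either HMBA day 2 array, either HMBA day 4 array or the HMBA day 6 array in Cy5 (0.51 to 0.68), and with 1 group per treatment (adjusted p = 0.087). With all arrays and the dye as a replicate block, the HMBA mean had an adjusted p of 8.4e-05 by probe 1116201 and 0.73 by probe 1117146. The genes most like Coch over the 18 arrays were Arid1a (r of 0.903), Srsf6 (0.897) and Midn (0.897).

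**Figure D4:**
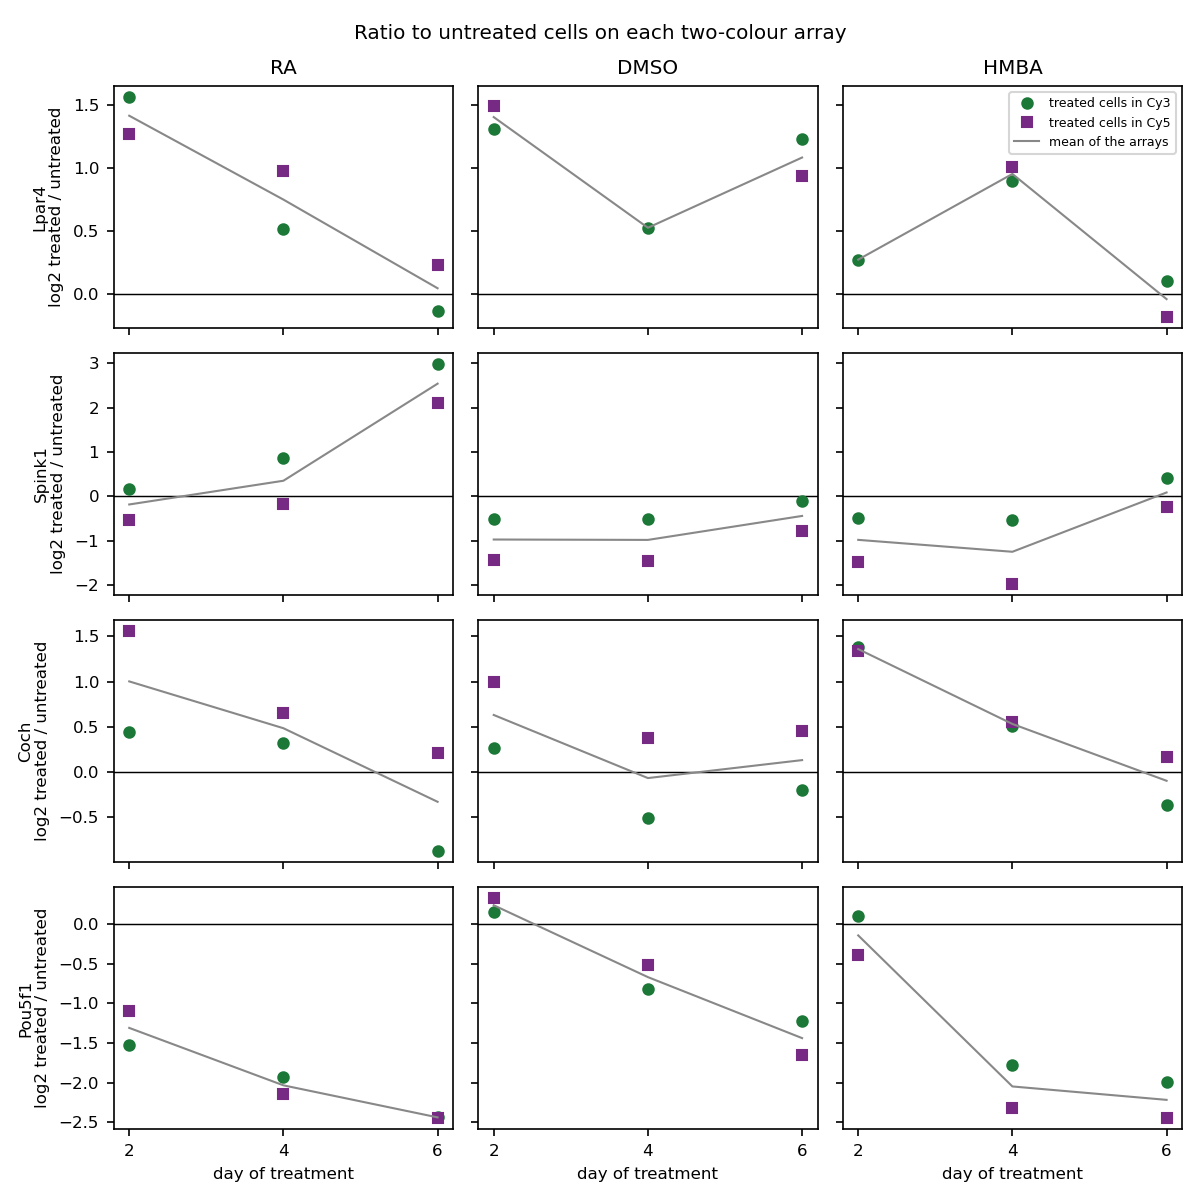
Log ratio, taken as log2, of treated over untreated cells against day of treatment for Lpar4, Spink1, Coch (probe 1116201) and Pou5f1 with RA, DMSO and HMBA. Circles are arrays with treated cells in Cy3, squares in Cy5, and the grey line joins the mean of the arrays with a value. Spink1 reaches 2.98 and 2.10 at RA day 6, Lpar4 lies near 0 at RA day 6 after 1.56 and 1.27 at day 2, and Pou5f1 lies below -1 on all RA arrays.

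Of the partner genes, 54 were measured on the two-colour arrays, of which 16 rose and 1 fell with RA, 11 rose and 2 fell with DMSO, and 14 rose and 4 fell with HMBA, or 31.5%, 24.1% and 33.3% called. Those shares stand against 27.5%, 19.3% and 28.2% of all genes. Tcn2, the transcobalamin that carries vitamin B12 in plasma, rose by 1.69 with RA, 0.84 with DMSO and 1.31 with HMBA, and its receptor gene Cd320 by 0.54, 0.42 and 0.69. Lpar6 rose by 0.69, 0.86 and 1.05 in the same order, Plpp2 rose by 0.59, 0.72 and 1.05, and Plpp3 rose by 0.77 with RA and fell by 0.35 with DMSO and by 0.32 with HMBA. Gnai2, a G protein subunit, rose by 0.83, 1.27 and 1.21, and Arrb1 by 0.58, 0.98 and 0.72. Dcbld1 rose by 0.71 with RA and fell by 0.53 with DMSO and by 0.64 with HMBA, while Dcbld2 rose by 0.99, 0.65 and 0.86. Myb fell by 1.18 with RA and by 1.39 with HMBA, and gave -0.39 with DMSO (adjusted p = 0.17). With the dye as a replicate block, 29 of the 54 were called with RA, 24 with DMSO and 31 with HMBA. No share of all genes called with the block is given beside these counts.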

How the data were processed

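The authors deposited RNAi values as log2 levels, made with RMA per the submitters' processing notes, and two-colour values as log ratios, which per the labels all run treated over untreated. No label states the base of the ratios, and log2 was assumed. Neither table has detection calls, so low levels may be background, and small differences there may be understated. Probe names came from the platform tables; 64 control probe sets and probes lacking a value in a group were left out. limma 3.58.1 in R 4.3.3 (lmFit, eBayes, Benjamini-Hochberg) was run over all probes of a platform after a test on simulated data, with group as the only term; calls are at adjusted p under 0.05. The probe set of highest mean, or the probe with most values, stands for a gene.

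The members, partner lists and tests were chosen with earlier results of these data known. Named genes are the members, up to 3 called genes per partner list and comparison with the smallest adjusted p, neighbours called with at least 1 log2, and the 3 genes with the highest r. Other genes were named after their values were seen: Amn, Lrp2, Aplnr, Dab2, Plpp3 Arrb1, Plpp2, Myb, Ccng1, Ccng2 and marker genes where outside that rule. Deviations of RNAi arrays of the same number had r over 0.1 in 5 of 13 pairs (median 0.067). Those of different numbers did in 11 of 52 pairs (median 0.007). Pairing by number is therefore not settled, and the main fits left it out. On two-colour arrays the number marks the dye orientation per the labels, and same-numbered arrays deviated together (r of 0.51 to 0.92). Values with a dye block are therefore given where they change the call of a member or of Nanog. They are also given where they change a count over the partner genes or a marker list, and for member calls lost in another setting. DMSO day 4 replicate 2 lacks 5458 of 16657 values, other arrays 31 to 1348. Arrays within an RNAi group correlated at 0.990 to 0.997.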

Additional observations from a re-analysis of the deposited data

Results flagged for a closer look

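Among 45 groups of 4 or 5 arrays examined by probe set, 4 held an array far from the others of its group by Dixon's test, where chance gives about 1 in 20. Lpar4 by 1439665_at was lowest on Nanog RNAi replicate 4, at 7.41, still above all vector arrays. Lpar4 by 1452424_at was lowest on Nanog RNAi replicate 5, at 5.52, inside the vector range of 4.94 to 5.59. Apela by its dim probe set 1442571_at was lowest on vector replicate 1, at 3.53, and Enox1 by its dim probe set 1447857_at was highest on vector replicate 4, at 3.35. The Spink1 response differed between agents by the test of the difference itself, at 1.70 log2 for RA minus DMSO and 1.62 for RA minus HMBA.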

How the results depend on the processing

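The RNAi differences of all 7 genes kept their direction with quantile normalization, median centring, 2-group fits, the replicate block and each array left out. Leaving out arrays moved the median of the members between -2.59 and -2.53 for Pou5f1 RNAi minus vector, -3.65 and -3.49 for Pou5f1 RNAi minus Nanog RNAi, and 1.08 and 1.17 for Nanog RNAi minus vector. By its other probe set Enox1 turned to 0.024 for Nanog RNAi minus vector, and by its other probe Coch turned to -0.062 with RA and gave 0.048 with HMBA. The cause was not tested.

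With 1 group per treatment, calls were lost at unchanged means for Spink1 with RA (0.90, adjusted p = 0.073), DMSO (-0.80, 0.15) and HMBA (-0.71, 0.17), and Coch with HMBA (0.60, 0.087), and for Lpar4 with HMBA at 0.42 (0.18). The same setting, chosen for the differences between agents after seeing the data, lost Spink1 RA minus DMSO (1.70, 0.062) and RA minus HMBA (1.62, 0.12); by construction it adds the change over days to the error.

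With dye orientation as the replicate block, 16 of 27 combinations of gene, treatment and day were called, against 7 without it. The share of all genes called with the block is not given, so nothing about the members is read from these counts. The block also called Nanog with RA (-0.47), Coch with RA (0.38) and, by its other probe, with DMSO (0.31), Lpar4 HMBA minus DMSO (-0.61), and day 6 minus day 2 of Spink1 with RA (2.72) and HMBA (1.07) and of Coch with RA (-1.33) and HMBA (-1.46). Partner calls went to 29, 24 and 31 with RA, DMSO and HMBA, against 17, 13 and 18. The labels tie RNAi arrays of 1 number by that number only. A block by number called 40, 37 and 28 of 74 partner genes, against 35, 34 and 26. It called 14, 13 and 6 of 28 neighbours, against 10, 13 and 6.

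Leaving out each two-colour array gave ranges of 0.73 to 1.08 (Spink1, RA), -0.95 to -0.64 (Spink1, DMSO), -0.95 to -0.47 (Spink1, HMBA), 0.35 to 0.44 (Lpar4, HMBA), 0.20 to 0.57 (Coch, RA) and 0.51 to 0.68 (Coch, HMBA). Between agents they were 1.38 to 1.86 (Spink1, RA minus HMBA), -0.16 to 0.33 (Spink1, HMBA minus DMSO) and -0.031 to 0.34 (Coch, RA minus DMSO); the last 2, not called, changed sign. Partner calls on the RNAi arrays stayed between 32 and 37, 32 and 35, and 20 and 26. Where an omission left 1 array on a day, that array was assumed to vary like the others. Such a day was then read in 1 dye, and these fits had no dye term.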
